A study of Daphnia magna with 30 samples.

Results

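RRP41 and RRP43 are subunits of the RNA exosome, and their transcripts were followed with 1 probe each, DM00547P1 for RRP41 and DM12125P1 for RRP43, among the 14338 *Daphnia magna* probes of the array. Both probes were taken by name from the study's supplementary list of annotated transcripts, which had been selected on their photoperiod p values and fold changes, partly in the same arrays. Photoperiod differences of the 2 transcripts are therefore given as a description, without a test. Tests were kept for animal label, chambers of a photoperiod and the correlation within photoperiods, which were not used in that choice. RNA of single, whole *D. magna* was hybridized to one-colour Agilent arrays, 1 animal per array, after 21 days under 1 of 5 photoperiods given as hours of light and dark: the short days 4L:20D and 8L:16D, the equinox 12L:12D, the control 16L:8D and the long day 20L:4D. Each photoperiod had 3 exposure chambers with 2 animals sampled per chamber, labelled A and B, which gave 6 animals per photoperiod and 30 arrays. All animals were 21 days old and of a single genotype, from cultures founded by 1 individual and kept under 16L:8D until birth. Their sex was not stated in the labels, and no further treatment was applied. The 3 chambers of a photoperiod stood in the same lit box, so box and photoperiod cannot be told apart. Whole animals were sampled shortly after lights on with the contents of the brood pouch, so each value mixes maternal and embryonic RNA.

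The RNA exosome is a barrel-shaped complex that holds RNA in its channel and removes nucleotides from the 3′ end. In yeast and human the wall of the barrel is a ring of proteins related to bacterial RNase PH, to which RRP41 and RRP43 both belong, and cutting is done by separate nucleases bound to the ring. The complex trims precursors of ribosomal and small nucleolar RNA in the nucleus and degrades faulty RNA and messenger RNA in the nucleus and the cytoplasm. These roles are known from yeast and human, and no role of either subunit in *Daphnia* is assumed here.

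The oligonucleotides are shown because every value below rests on these 2 stretches of transcript. They are written 5′ to 3′ as given in that list.
RRP41 (DM00547P1): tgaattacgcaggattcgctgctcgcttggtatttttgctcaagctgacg
RRP43 (DM12125P1): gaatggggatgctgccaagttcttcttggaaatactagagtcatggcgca
Each oligonucleotide was 50 bases long with a GC content of 48.0%, which equalled the median of the 958 probes named in the list. The longest run of bases present in both was 5. The RRP41 probe carried that name in both annotations of the array, the earlier one through a match to *Hydra magnipapillata*, whereas the RRP43 probe was named in the newer *D. magna* annotation alone. Neither name was checked against a protein sequence here, so values given for RRP41 and RRP43 are those of the probes so named, with the weaker annotation for RRP43. No other probe named in the list belonged to the exosome, and none belonged to the helicases, adaptors and poly(A) polymerases that feed RNA to it. Probes of the array outside the list carried no name here, so other exosome subunits were not analysed here.

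Both transcripts were measured well above background in every animal. The RRP41 probe was printed as 2 spots per array, and all 60 spots were called well above background by the scanner software, with processed signals of 242.1 to 705.1 and a median of 366.7. The RRP43 probe had 1 spot per array, well above background on all 30 arrays, with signals of 84.7 to 301.9 and a median of 177.7. No spot of either probe was saturated or marked as an outlier. Signals of different probes depend on the oligonucleotide, so the level of RRP41 was not set against that of RRP43.

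The duplicate RRP41 spots gave the error of spotting and reading within an array. Values are log2 signals relative to the 75th percentile of each array, so that 0 is a signal equal to that percentile. The 2 spots of an array differed by a median of 0.0404 and at most 0.1385, and the first spot was the higher on 18 of 30 arrays. The SD of a single spot was 0.0417. Between animals the SD was 0.2891 after a fit of photoperiod, animal label and their interaction. Each animal was labelled and hybridized once, so the spread between animals also holds labelling, hybridization, slide and scaling error, which the duplicate spots do not measure. The RRP43 probe, with its single spot, gave no such estimate.

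**Figure D1:**
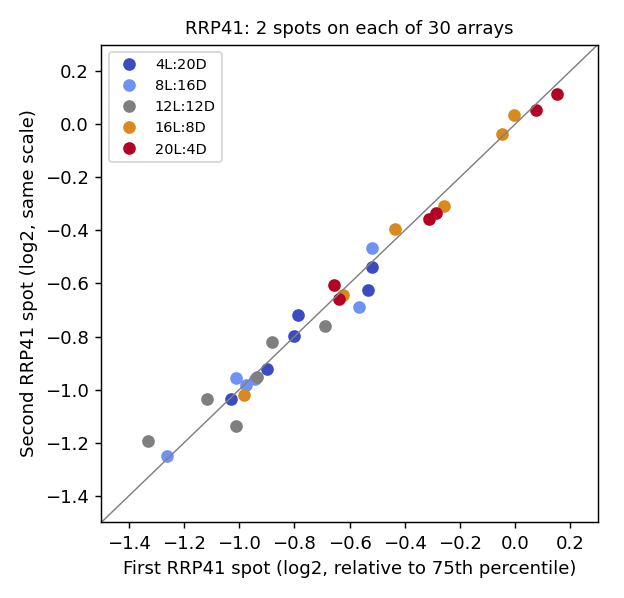
Log2 signal of the second RRP41 spot (vertical axis) against the first (horizontal axis), both relative to the 75th percentile of the array, with 1 point per array coloured by photoperiod and a line of equality. The 30 points follow the line with differences of at most 0.1385.

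RRP41 transcript levels were higher in the 16L:8D control and in 20L:4D than in the 3 photoperiods with shorter light. In the 16L:8D control the lowest animal was at -1.001, the median at -0.35 and the highest at 0.02 (mean -0.39 ± 0.38, SD, n = 6). The 20L:4D animals lay between -0.65 and 0.13 with a median of -0.32 (mean -0.29 ± 0.33). These groups overlapped over most of their range, and animal 2B of the control, at -1.001, lay far below its chamber mate 2A at 0.02.

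Under 4L:20D the RRP41 values ran from -1.03 over a median of -0.78 to -0.53 (mean -0.77 ± 0.19, SD, n = 6). Under 8L:16D they ran from -1.26 over a median of -0.97 to -0.49 (mean -0.88 ± 0.28). Under 12L:12D they ran from -1.26 over a median of -1.01 to -0.73 (mean -0.99 ± 0.19). All 18 animals of these 3 photoperiods were below the mean of the control animals, yet because of control animal 2B only 1, 1 and 3 of 6 were below the lowest control animal.

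RRP43 transcript levels in the control lay above those of the shorter photoperiods, and above the whole range of 4L:20D and 12L:12D. The 6 control animals lay close together, with the lowest at -1.44, the median at -1.25 and the highest at -1.09 (mean -1.26 ± 0.12, SD). The 4L:20D animals had a lowest value of -2.49, a median of -2.15 and a highest of -1.54 (mean -2.13 ± 0.36). The 12L:12D animals had a lowest value of -2.61, a median of -2.21 and a highest of -1.82 (mean -2.19 ± 0.28). No animal of 4L:20D or 12L:12D overlapped the control range, whereas over all probes 3.24% and 3.8%, respectively, had all 6 animals below the lowest control animal.

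The 8L:16D and 20L:4D animals were split in RRP43. Under 8L:16D the lowest animal was at -2.30, the median at -1.55 and the highest at -1.29 (mean -1.74 ± 0.43, SD, n = 6), with animals 1B and 2A near -2.3 and the other 4 between -1.62 and -1.29. Under 20L:4D the lowest was at -2.17, the median at -1.31 and the highest at -1.18 (mean -1.54 ± 0.44), with animals 1B and 3B at -2.17 and -2.03 and the other 4 between -1.37 and -1.18. In 8L:16D 5 of 6 animals were below the lowest control animal, and in 20L:4D 2 of 6.

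**Figure D2:**
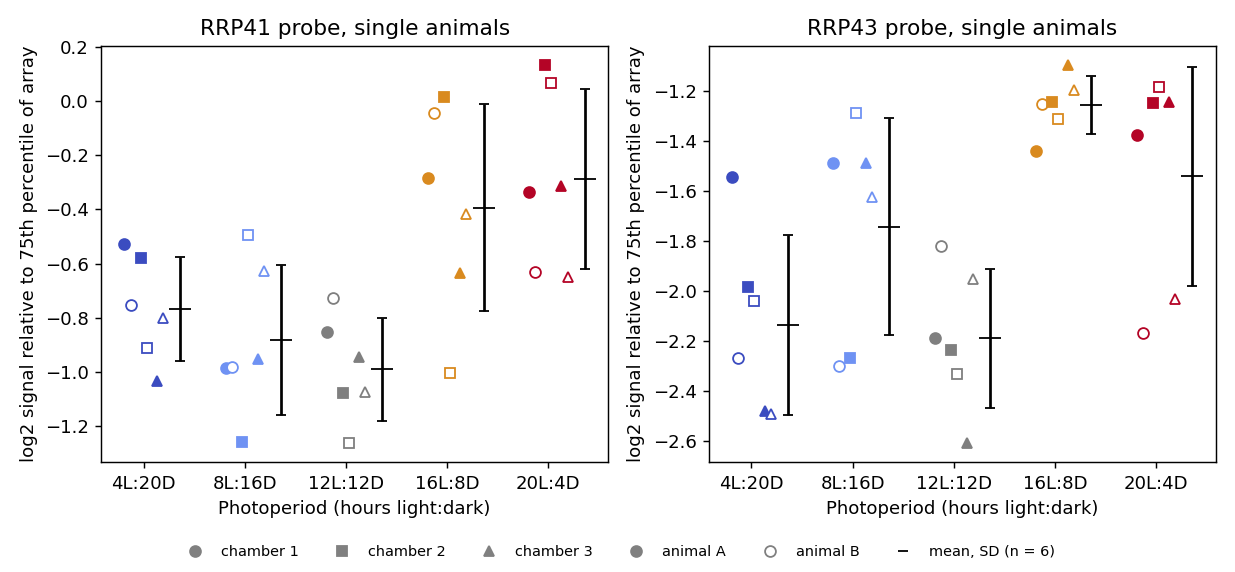
Log2 signal relative to the 75th percentile of the array (vertical axes) for the RRP41 probe (left) and the RRP43 probe (right) in each animal, by photoperiod (horizontal axis). Marker shape gives the chamber, filled and open markers are animals A and B, and bars are the mean and SD of 6 animals. The RRP43 control animals span -1.44 to -1.09 and those of 12L:12D -2.61 to -1.82.

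The photoperiods did not fall in the order of their hours of light for either transcript. For RRP41 the means descended from 20L:4D over the control, then 4L:20D and 8L:16D, to 12L:12D. In this order only the step from 16L:8D to 4L:20D, of 0.374, exceeded the pooled SD of its neighbours (0.3025). The other steps were of 0.105 to 0.114 against pooled SDs of 0.2368 to 0.3582. For RRP43 the means descended from the control over 20L:4D, then 8L:16D and 4L:20D, to 12L:12D, and no step exceeded the pooled SD, the largest being 0.394 from 8L:16D to 4L:20D against 0.398. Both transcripts were lowest under the equinox photoperiod, 12L:12D, and the ranges of all neighbours in both orders overlapped.

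Relative to the 16L:8D control, RRP41 differed by -0.37 under 4L:20D, -0.49 under 8L:16D, -0.60 under 12L:12D and 0.11 under 20L:4D on the log2 scale (each with a standard error of 0.17 from the fit). These are levels 1.30-fold, 1.40-fold and 1.51-fold below the control and 1.08-fold above it, respectively. Falls larger than that of RRP41 were found for 20.8% of all probes under 4L:20D, 10.3% under 8L:16D and 9.38% under 12L:12D. The sign under 20L:4D rested on chamber 2, whose animals were at 0.13 and 0.06, since without that chamber the difference was -0.09.

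RRP43 differed from the control by -0.88 under 4L:20D, -0.49 under 8L:16D, -0.93 under 12L:12D and -0.28 under 20L:4D (standard error 0.20), or 1.84-fold, 1.40-fold, 1.91-fold and 1.22-fold lower. Falls larger than that of RRP43 were found for 5.37%, 10.4%, 4.22% and 16.0% of all probes, in the same order. The 2 transcripts thus had nearly the same difference under 8L:16D, and RRP43 had the larger fall under 4L:20D and 12L:12D. With each animal's position on the first 2 components of spread within photoperiods as covariates, RRP41 differed by 0.03, -0.16 and -0.09 in the 3 shorter photoperiods, and RRP43 by -0.35, -0.18 and -0.51. Positions free of photoperiod differences could not have changed these values in this balanced design. The positions thus carried such differences, and as covariates they took out part of the photoperiod differences themselves. Whether the 2 transcripts differed in their response was not tested, since the responses served to choose them.

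The study's rule for a call requires a photoperiod p under 0.01, a pairwise p under 0.05 and a change of at least 1.5-fold. RRP41 met it under 12L:12D, just inside the fold limit at 1.51-fold, and RRP43 under 4L:20D and 12L:12D. Just outside the fold limit lay both transcripts under 8L:16D, at 1.40-fold. The rule called 3.05% of all probes lower under 4L:20D, 2.36% under 8L:16D, 3.56% under 12L:12D and 0.46% under 20L:4D, and called higher 1.53%, 1.78%, 2.73% and 0.349%. Since the list that named the 2 probes was made by a rule of this kind on these animals, nothing is read from their calls.

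Slide and scan varied beside these differences. The 30 arrays were on 9 slides read in 2 scan sessions, and the second session held 1 slide with 5 arrays, 2 of them of the control. The 2 control animals of the second session averaged -0.13 for RRP41 against -0.52 for the other 4, and -1.34 against -1.21 for RRP43. Within the first session, RRP41 differed from the control by -0.24 under 4L:20D, by -0.36 under 8L:16D, by -0.47 under 12L:12D and by 0.22 under 20L:4D. RRP43 differed there by -0.92, -0.53, -0.89 and -0.28, in the same order, close to its values over all arrays.

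A few slides held control animals beside others. On these, both 12L:12D animals were below the control animals of their slide, with differences of -0.85 and -0.81 for RRP41 and of -1.27 and -1.01 for RRP43. Of the 2 animals of 4L:20D, RRP41 was lower in 1 and RRP43 in both (-0.82 and -0.67). The single 8L:16D animal differed by 0.14 in RRP41 and -0.19 in RRP43. Of the 3 animals of 20L:4D, RRP41 was lower in 1 and RRP43 in 2.

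The letter of the animal and its interaction with photoperiod were tested for both transcripts, and neither passed a threshold. The animals of a chamber were drawn at random, so these tests do not measure how far single animals differed. The letter of the animal made a difference (B minus A) of -0.05 ± 0.11 (SE) for RRP41, with B higher in 7 of 15 chambers (adjusted p = 0.991 over all probes in limma). For RRP43 it was -0.09 ± 0.12, with B higher in 5 of 15 chambers (adjusted p = 0.989 in limma). Over all probes 0.446% had a letter p under 0.01, and none had an adjusted p under 0.05, although 64 had an unadjusted p under 0.01. The interaction of letter and photoperiod had an adjusted p of 0.938 in limma for each transcript, and over all probes 1.46% had an unadjusted p under 0.01.

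Chambers of a photoperiod did not differ detectably beyond their animals in either transcript. A moderated F test of chambers within photoperiods in limma gave an adjusted p of 0.786 for RRP41 and of 0.885 for RRP43, and over all probes 2.05% had an unadjusted p under 0.01. Chamber mates differed by 0.30 on average in RRP41 and by up to 1.02, in chamber 2 of the control. In RRP43 they differed by 0.39 on average and by up to 0.98, in chamber 2 of 8L:16D. With 2 animals per chamber, small differences between chambers were not detectable.

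Animals with a high RRP41 level for their photoperiod tended to have a high RRP43 level as well. After each photoperiod mean was removed, the deviations of the 30 animals correlated with Pearson's r = 0.560 (two-sided permutation test within photoperiods, 100000 draws, p = 0.00173) and Spearman's rho = 0.549 (p = 0.00359). Without the 2 animals farthest from the median of RRP41, 2B of the control and 2A of 20L:4D, r was 0.590 (n = 28, p = 0.00182). Over the 15 chamber means r was 0.712 (permutation p = 0.0182) and rho 0.786 (p = 0.01). The adjusted p over these 3 correlations was 0.00273, 0.00273 and 0.0182, respectively. Within single photoperiods r was highest under 20L:4D (0.860), followed by 4L:20D (0.746) and 8L:16D (0.691), and lower under 12L:12D (0.385) and in the control (-0.082), each over 6 animals and given without a test. Over the 25 animals of the first scan session r was 0.588. Of the 15 chambers, 9 had the same animal higher in both transcripts.

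**Figure D3:**
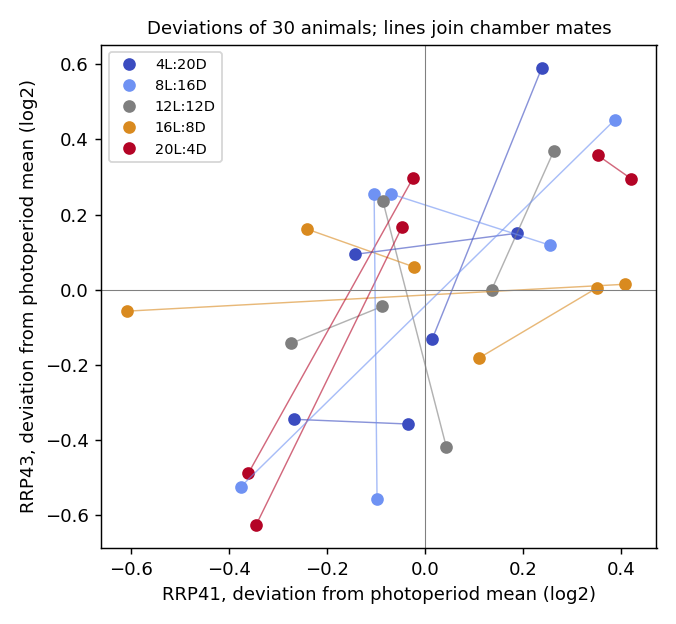
Deviation from the photoperiod mean of RRP43 (vertical axis) against that of RRP41 (horizontal axis) in log2 units, with 1 point per animal coloured by photoperiod and lines joining chamber mates. The 30 points give r = 0.560, and the 16L:8D points, at r = -0.082, lie in a flat band, with RRP43 control values between -1.44 and -1.09.

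Many other probes correlated as strongly with either member. Both values of an animal come from the same array and share its scaling. Of the other 14238 probes with a value on all arrays, 980 (6.88%) had a higher correlation of deviations with RRP41 than RRP43 had, and 1472 (10.3%) had a higher one with RRP43 than RRP41 had. The median probe had r = 0.134 with RRP41 and 0.064 with RRP43. The first 2 principal components of the spread within photoperiods held 41.3% and 18.9% of that spread over all probes. Together they held 59.7% of the spread of RRP41 and 77.6% of that of RRP43, against 23.8% for the median probe. With the positions on both components as covariates the correlation was -0.039 (permutation p = 0.843).

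The probes whose pattern over the 30 animals was most like that of a member were not those of the other member. For RRP41 the highest correlations were with DM04306P2 (r = 0.938), DM03877P2, named WD repeat-containing protein 18 (r = 0.918), DM11556P1 (r = 0.905), DM02388P1 (r = 0.905) and DM00739P3 (r = 0.903), and all but DM03877P2 are without a name here. RRP43 stood at rank 584 with r = 0.694. For RRP43 the highest correlations were with DM12039P1, RNA-binding protein pno1 (r = 0.961), an assembly factor of the small ribosomal subunit in yeast, and DM00675P1, putative Another transcription unit protein (r = 0.949). These were followed by DM00490P1 and DM00396P1, the epsilon and beta subunits of T-complex protein 1 (r = 0.939 and 0.937), a chaperonin that folds actin and tubulin, and by the uncharacterized DM11342P2 (r = 0.927). RRP41 stood at rank 871 among the probes like RRP43. These correlations include the photoperiod means and are given as a description.

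Other transcripts of RNA decay and of ribosomal RNA processing were named for 22 probes of the study's list, and most were lower than in the control in the shorter photoperiods. As all 22 come from a list of responding transcripts made partly on these animals, their counts are not independent evidence of a direction. Some probes shared a name, such as those for RLP24 and for cell growth-regulating nucleolar protein, so the counts are of probes and not of genes. Over all probes the rule called 3.05% lower under 4L:20D, 2.36% under 8L:16D, 3.56% under 12L:12D and 0.46% under 20L:4D. Ribosomal RNA processing is a nucleolar pathway in which the exosome trims 3′ ends. Of its 19 probes, 10 were called lower under 4L:20D, 8 under 8L:16D, 12 under 12L:12D and none under 20L:4D, and none was called higher. Their median log2 differences from the control were -0.65, -0.69, -0.70 and -0.21. Among the 19, DM01460P3, RRP12-like protein, was well above background on only 6 arrays. The medians over all probes were -0.06, -0.03, -0.06 and -0.02. With positions on the main components of spread as covariates, which themselves carried photoperiod differences, 0 of the 22 probes were called in the 3 shorter photoperiods. The share of all probes called in that setting is not given, so nothing is read from this count. RRP41 had a smaller fall than the median of these 19 in each of the 3 shorter photoperiods, and RRP43 a larger one under 4L:20D and 12L:12D.

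The 3 probes of ribosomal RNA processing with the smallest photoperiod p are given as a description. DM01044P1, the nucleolar KKE/D repeat protein, part of the complex that methylates ribosomal RNA, differed from the control by -0.86, -0.83 and -0.84 from the shortest to the longest of the 3 shorter photoperiods and by -0.39 under 20L:4D (SE 0.16). DM04302P2, the pre-rRNA-processing protein TSR1, which acts in maturation of the small ribosomal subunit, differed in the same order by -0.66, -0.79, -0.71 and -0.27 (SE 0.16). DM00412P2, nucleolar protein nop5, a partner of the KKE/D repeat protein, differed by -0.74, -0.69, -0.96 and -0.17 (SE 0.20). All 3 were called lower in the 3 shorter photoperiods, but they were picked by their photoperiod p in these arrays, so nothing is read from this. Of the other probes of the list, DM02703P2, nucleolar KKE/D repeat-like protein, differed by -0.27, -0.38, -0.64 and -0.10 (SE 0.15). It was called lower under 12L:12D alone. DM00897P3, ribosome biogenesis methyltransferase WBSCR22, was called in no photoperiod.

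The 3 probes of deadenylation and decapping, the steps that open messenger RNA to decay, did not move alike. DM12145P1, a subunit of the PAB-dependent poly(A)-specific ribonuclease that shortens poly(A) tails, differed in that order by -0.57, -0.40, -0.72 and -0.30 (SE 0.14) and was called lower under 12L:12D. DM02303P2 was placed in this list by its earlier annotation alone, as similar to an LSM Sm-like protein. Its newer name was a hypothetical protein, and a role in decapping was not checked. DM02303P2 differed by -0.88, -0.72, -0.53 and -0.56 (SE 0.23), was called lower under 4L:20D and 8L:16D, and was well above background on 18 arrays. DM08531P2, mRNA-decapping enzyme 1B, differed by 0.46, -0.02, 0.07 and 0.15 (SE 0.22) and was not called in any photoperiod.

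**Figure D4:**
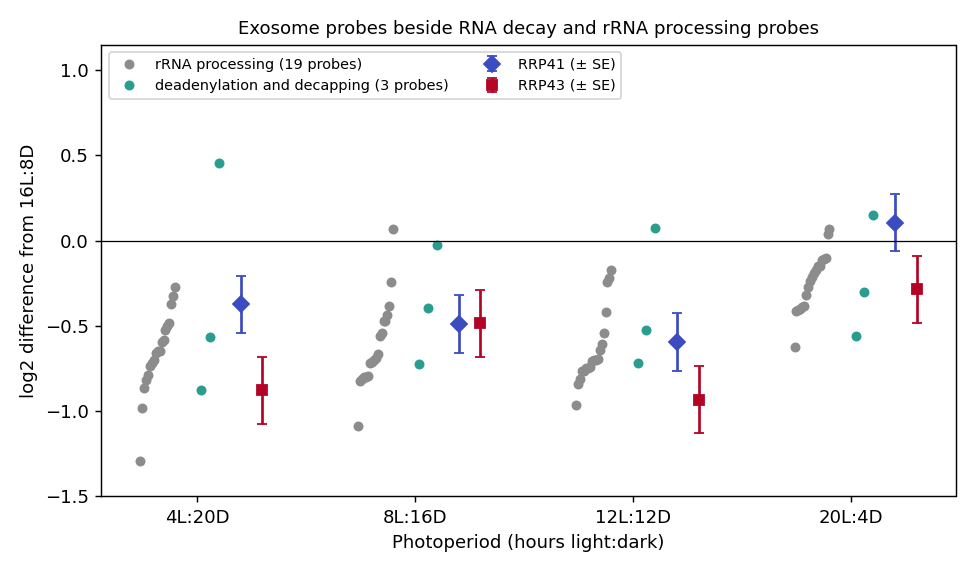
Log2 difference from the 16L:8D control (vertical axis) in the other 4 photoperiods (horizontal axis) for RRP41 and RRP43 (with the standard error of the fit) and for the 19 probes of ribosomal RNA processing and 3 of deadenylation and decapping, sorted within each group. Under 12L:12D all 19 grey points lie below 0, with RRP41 at -0.60 and RRP43 at -0.93. The grey points include DM01460P3, which was well above background on only 6 arrays.

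Within photoperiods the 22 probes also varied with the members. The correlation of deviations with RRP41 had a median of 0.59 (-0.04 to 0.80), with 21 of 22 above 0. With RRP43 it had a median of 0.45 (-0.38 to 0.81), with 20 of 22 above 0. The medians over all probes, which were not selected as responding, were 0.134 and 0.064. The share of all probes with a correlation above 0 is not given, so nothing is read from the counts above 0. The correlations of the 22 probes share the arrays and the main components of spread described above.

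Transcripts of egg proteins also differed between photoperiods in the same samples. In whole animals, fewer cells of a type and less RNA per cell cannot be told apart. The summed level of 8 probes for yolk and egg covering proteins, in multiples of the 75th percentile of the array, lay between 14.0 and 35.4 in the 16L:8D control (median 32.1) and between 19.3 and 51.7 in 20L:4D (median 34.6). It lay between 11.8 and 20.8 in 4L:20D (median 18.1), between 11.4 and 26.6 in 8L:16D (median 15.2) and between 9.93 and 18.8 in 12L:12D (median 13.4). These 8 probes come from the same list of responding transcripts, so their counts are not independent evidence of a direction either. Of the 8, 5 were called lower under 4L:20D, 6 under 8L:16D, 5 under 12L:12D and 0 under 20L:4D, beside 3.05%, 2.36%, 3.56% and 0.46% of all probes, and 4 were well above background on all arrays. Those called lower were for chorion peroxidase, an enzyme of the egg covering, and for vitelline membrane proteins. The chorion peroxidase probes DM03869P1, DM03972P1, DM08907P2 and DM08909P1 were well above background on only 17, 18, 19 and 9 arrays, respectively. The 2 probes for vitellogenin, the yolk precursor, were not called lower. DM01555P3 differed by 0.97, 0.77 and 1.97 in the 3 shorter photoperiods (SE 0.48) and was the 1 probe called higher, under 12L:12D, and DM00375P2 differed by -0.13, -0.07 and -0.20 (SE 0.32). The part of these egg transcripts in the RRP41 and RRP43 differences was not tested.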

How the data were processed

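Processed signals of the 30 arrays of the second experimental trial were analysed. The authors scanned the arrays and extracted each spot with Agilent Feature Extraction (version 10.7.3.1 per the file headers, 9.5.1 in the submitters' processing notes). The processed signal in the deposited scanner output is a linear fluorescence intensity from which background was subtracted. A second deposited file holds log2 values that were scaled to the 75th percentile and to a baseline per probe, used here as an alternative. Its lowest correlation with the recomputed values was 0.99972, its column medians ran from -0.086 to 0.154, and 14338 of its 14398 entries matched *D. magna* probes.

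The 536 control spots of the 15744 per array and 188 outlier spots among the other 456240 were left out. Spots of a probe were averaged and expressed as log2 relative to each array's 75th percentile (477.5 to 705.3). Between 10568 and 12900 probes per array were well above background, and 14239 probes had a value on all arrays. Arrays correlated with each other at 0.878 to 0.991. The number of arrays limits the precision. limma 3.58.1 in R 4.3.3 was fitted over all 14338 probes with photoperiod, letter and their interaction (20 residual and 1.91 prior degrees of freedom). The Benjamini-Hochberg adjustment ran over all probes. Permutations, figures and counts used Python 3.11.15 with matplotlib 3.10.9, pandas 2.3.3, scipy 1.17.1 and numpy 2.4.6, and statmod 1.5.0 served duplicateCorrelation. The fits and the permutation test were checked on simulated data.

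The members and the gene lists were chosen with earlier results of these data known. The plan was to name beside the members, from each list, at most the 3 probes with the smallest photoperiod p. For each member the 5 probes with the highest correlation over the 30 animals were also named. Further probes of the ribosomal RNA processing and egg lists were named outside this plan. Lists were matched by name in the study's supplementary list. The columns of comparisons in the study's tables were not used.

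Alternatives were quantile normalization, no scaling, normexp on the median signal (offset 50), the deposited log2 table, the 11860 probes detected above background on 15 or more arrays alone, floored signals, slide, scan session, replicate number or chamber as a block, no letter, only the 12 arrays of a pair, positions on the 2 main components, stricter thresholds and leaving out each chamber. Several of these could not change the differences of RRP41 and RRP43. They were the filter, floored signals, replicate number or chamber as a block, no letter and the pair alone. Leaving out a chamber could change only differences involving its photoperiod. The limit for a moved difference was the SD between animals left by the main fit, 0.289 for RRP41 and 0.344 for RRP43. It is near the size of some differences, and a change of sign of RRP41 under 20L:4D stayed within it. The 6 animals of a photoperiod came from 3 chambers in 1 box, so p values measure the spread between animals and chambers of a box.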

Additional observations from a re-analysis of the deposited data

How the results depend on the processing

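The differences of RRP41 and RRP43 from the control were recomputed under 14 alternative settings and 15 fits that each left out a chamber. In the alternative settings 7 values moved by more than the SD between animals left by the main fit. The other 105 moved by less, where they could move at all. Without a chamber, none moved by more. With positions on the 2 main components of spread as covariates, RRP41 differed by 0.03 under 4L:20D, -0.16 under 8L:16D and -0.091 under 12L:12D, and RRP43 by -0.35 under 4L:20D and -0.51 under 12L:12D. The correlation within photoperiods turned to -0.039 in that setting, and it lay between 0.483 and 0.636 when chambers were left out. With normexp background correction RRP43 differed by -0.59 under 12L:12D. With the mean E1A spike-in signal as a covariate, chosen after seeing the data, it differed by -0.86 under 8L:16D. Under 20L:4D the 14 settings gave RRP41 differences of 0.06 (slide as a block) to 0.20 (no scaling) and RRP43 differences of -0.48 (with the E1A covariate) to -0.11 (with the main components). Leaving out chambers gave RRP41 differences of -0.44 to -0.26 under 4L:20D, -0.55 to -0.37 under 8L:16D, -0.70 to -0.48 under 12L:12D and -0.09 (without chamber 2 of 20L:4D) to 0.22 under 20L:4D, and RRP43 differences of -0.99 to -0.70, -0.58 to -0.41, -1.03 to -0.88 and -0.45 to -0.17. The letter, interaction and chamber tests of both transcripts stayed on the same side of their threshold under all alternatives run, which were 10 settings for the chamber tests, 12 for the others, and 15 fits without a chamber for each.

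Of the 22 other probes of RNA decay and ribosomal RNA processing, 11 were called under 4L:20D, 9 under 8L:16D, 13 under 12L:12D and 0 under 20L:4D. Over all probes the main fit called 3.05%, 2.36%, 3.56% and 0.46% lower, in the same order. The counts for the first 3 photoperiods were 5, 5 and 7 with normexp, 6, 3 and 6 with no scaling, 0, 0 and 0 with the main components as covariates, and 1, 1 and 0 at a fold change of at least 2. With slide as a block 4 were called under 4L:20D and 2 under 20L:4D, and by an adjusted p under 0.05 3 were called under 8L:16D. Without 1 chamber the counts ran from 6 to 13 under 4L:20D (6 without chamber 3 and 7 without chamber 1 of the control), 6 to 11 under 8L:16D, 8 to 15 under 12L:12D (8 without chamber 2 of 12L:12D) and 0 to 5 under 20L:4D (5 without chamber 2 and 1 without chamber 1 of 20L:4D). Which probes were called was not compared between settings, and the cause of these changes was not tested. The share of all probes called is given for the main fit alone, so the changed counts are not read as a result about this list.

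The median difference of all probes was 0.13 under 8L:16D with no scaling, and 0.14 under 12L:12D and 0.12 under 20L:4D with normexp. Relative to it, RRP41 and RRP43 differed by -0.45 and -0.45 under 8L:16D with no scaling, by -0.61 and -0.72 under 12L:12D with normexp, and by -0.01 and -0.32 under 20L:4D with normexp. The median of the 3 deadenylation and decapping probes was 0.07 under 12L:12D and 0.09 under 20L:4D with normexp. The replicate number did not pair samples (mean correlation of deviations -0.036 over 30 pairs with the same number, 0.023 over 60 with other numbers). With it as a replicate block, which could not move the differences, the counts were 10, 9, 13 and 1.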
